A study of Homo sapiens with 8 samples.

Results

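The HOX cluster genes were read across human breast cell lines. Members were chosen by name, as every probe whose platform gene symbol is HOXA, HOXB, HOXC or HOXD followed directly by a number. The rule found 32 probes for 29 genes among 24526 probes, of which 21834 are named and stand for 16922 genes. RefSeq lists 39 HOX genes. All 10 HOXB genes, all 9 HOXC genes and all 9 HOXD genes had a probe, while HOXA2 was the only one of 11 HOXA genes found, and the other HOXA genes were not analysed here.

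HOX genes encode homeodomain transcription factors that give cells their position along the body axis. They lie side by side in clusters named A to D, and genes in the same place in different clusters, the paralogs, share a number and descend from one ancestor. Low-numbered genes are switched on early and towards the head, high-numbered genes late and towards the tail. Adult tissues, the breast among them, keep a set of active HOX genes that differs between cell types, and HOX proteins bind DNA together with the TALE homeodomain proteins of the PBX and MEIS families.

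The series measured total RNA of 8 cell cultures on 8 Illumina bead arrays, 1 array per condition. For MDA-MB231, SUM1315 and SUM159, cancer lines that the labels call basal-like, an array came from cells that carry no transgene. Stable transfectants of SUM159 held either IRX5, a homeobox gene, or the bacterial control gene LacZ. HMLE is a mammary epithelial line made immortal by telomerase and the SV40 early region, and its arrays came from cells with LacZ, with Gcnt2, a glycosyltransferase gene, and with Foxq1, a forkhead transcription factor gene, so every HMLE array carries a transgene. The species of the constructs, the promoters that drive them and whether a line was 1 clone are not named in the labels. The design text names 2 purposes, the targets of Foxq1 and IRX5 and the comparison of SUM1315, MDA-MB231 and SUM159.

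Values are the authors' normalized probe intensities on a linear scale. Their median was between 159.7 and 159.9 in every array, and between 10498 and 10828 genes per array lay above a detection limit of 139.5. The limit comes from the spread of dim values. Probes differ in how strongly they bind, so the size of an intensity was compared between arrays for the same probe only. Where genes are set side by side by the detection limit, a difference between them may also lie in their probes. Each culture was measured in bulk, where fewer cells that use a gene and less RNA per cell cannot be told apart.

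The introduced genes did not all follow the labels. The GCNT2 probe for transcript NM_145649 read 9104 in HMLE/Gcnt2 and 106 in HMLE/LacZ. FOXQ1 read 299 in the array labelled Foxq1 and 1641 in HMLE/LacZ, and IRX5 read 151 in the array labelled IRX5 and 165 in SUM159/LacZ. The part of each gene in the construct is unknown, so a probe may lie outside it, and the directions given below for these 2 arrays rest on their labels. Of the epithelial markers, KRT5 read between 8303 and 16941 and KRT14 between 9157 and 21430 in the 3 HMLE arrays, and both lay below the limit in all 5 cancer line arrays. EPCAM was above it everywhere, from 176 to 214 in the cancer line arrays and from 250 to 356 in HMLE, and LAMB3 read 108 in SUM1315, 376 to 2425 in the other cancer line arrays and 9872 or more in HMLE. CDH1, the epithelial cadherin, read 8097 in HMLE/LacZ, 13304 in HMLE/Gcnt2 and 1191 in the array labelled Foxq1, 175 in SUM1315 and at most 106 in the other cancer line arrays. Of the epithelial list 5 of 5 genes were higher in HMLE than in SUM159 by limma (adjusted p under 0.05), and of 4 mesenchymal genes 1 was higher and 1 lower. The oestrogen and progesterone receptor genes ESR1 and PGR lay below the limit in all 8 arrays. Among 4 markers of other cell types, the leukocyte gene PTPRC reached at most 146, ADIPOQ of fat cells at most 142 and the melanocyte gene MLANA at most 98.7, while the endothelial gene PECAM1 read between 187 and 282. Thus 3 of the 4 lay above the limit of 139.5 somewhere, PTPRC only in HMLE/Gcnt2, ADIPOQ only in SUM159/LacZ and PECAM1 in all 8 arrays. A value little above the limit is therefore weak evidence of expression, for the HOX genes below too.

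Promoter windows, from 250 bases before to 50 bases after a start site, were found in the RefSeq tables (GRCh38.p14) for 12 of the 29 genes. Those of HOXC4 and HOXC5 are the same stretch, chr12:54016638-54016937 on the plus strand. It is shown because the brightest HOXC4 probe was lower in MDA-MB231 (119) than in the other arrays (258 to 908). The second HOXC4 probe did not set MDA-MB231 apart (115, with all arrays from 102 to 120, below the limit). HOXC5, which shares the window, reached at most 154. Which HOXC4 transcript starts in this window was not examined. The HOXA2 window, chr7:27102634-27102933 on the minus strand, is shown because HOXA2 differed between HMLE and SUM159. Capitals mark the homeodomain core motif TAAT on either strand.
HOXC4 and HOXC5: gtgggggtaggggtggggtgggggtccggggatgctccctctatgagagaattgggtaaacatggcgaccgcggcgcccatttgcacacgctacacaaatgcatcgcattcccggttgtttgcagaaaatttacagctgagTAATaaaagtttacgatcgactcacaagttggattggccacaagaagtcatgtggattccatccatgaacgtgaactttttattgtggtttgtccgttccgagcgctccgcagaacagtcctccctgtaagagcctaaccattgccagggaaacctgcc
HOXA2: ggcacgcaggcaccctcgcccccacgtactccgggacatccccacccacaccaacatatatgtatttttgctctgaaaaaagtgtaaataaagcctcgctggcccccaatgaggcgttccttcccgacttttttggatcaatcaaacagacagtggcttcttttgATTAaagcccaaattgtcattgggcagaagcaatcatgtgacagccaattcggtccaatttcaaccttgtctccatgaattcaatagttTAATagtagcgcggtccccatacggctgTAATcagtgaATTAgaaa
The core motif had 1 match in the HOXC4 window and 4 in the HOXA2 window. Over all 34943 windows of the same length 50.3% hold it, and 9 of the 11 different HOX windows do. The composite motif of HOX and PBX proteins, TGATNNAT on either strand, was found in 3 of the 11 HOX windows, those of HOXA2, HOXB1 and HOXD11, against 7.42% of all windows, and none of these matches overlapped the core motif. The HOXC4 window held 15 CpG sites, and the median over all windows was 14.

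Of the 29 HOX genes, 8 lay above the detection limit in all 8 arrays by their brightest probe, 15 in some arrays and 6 in none. The 6 were HOXB4, HOXB9, HOXB13, HOXC12, HOXD9 and HOXD10, whose values ran from 84.7 to 138. SUM1315 had 20 HOX genes above the limit and MDA-MB231 had 12. The other counts were 16 in SUM159, 16 in SUM159/IRX5, 13 in SUM159/LacZ and 18 in each of the 3 HMLE arrays. Of the HOXC cluster MDA-MB231 had 3 genes above the limit and every other array 6 or 7.

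**Figure D1:**
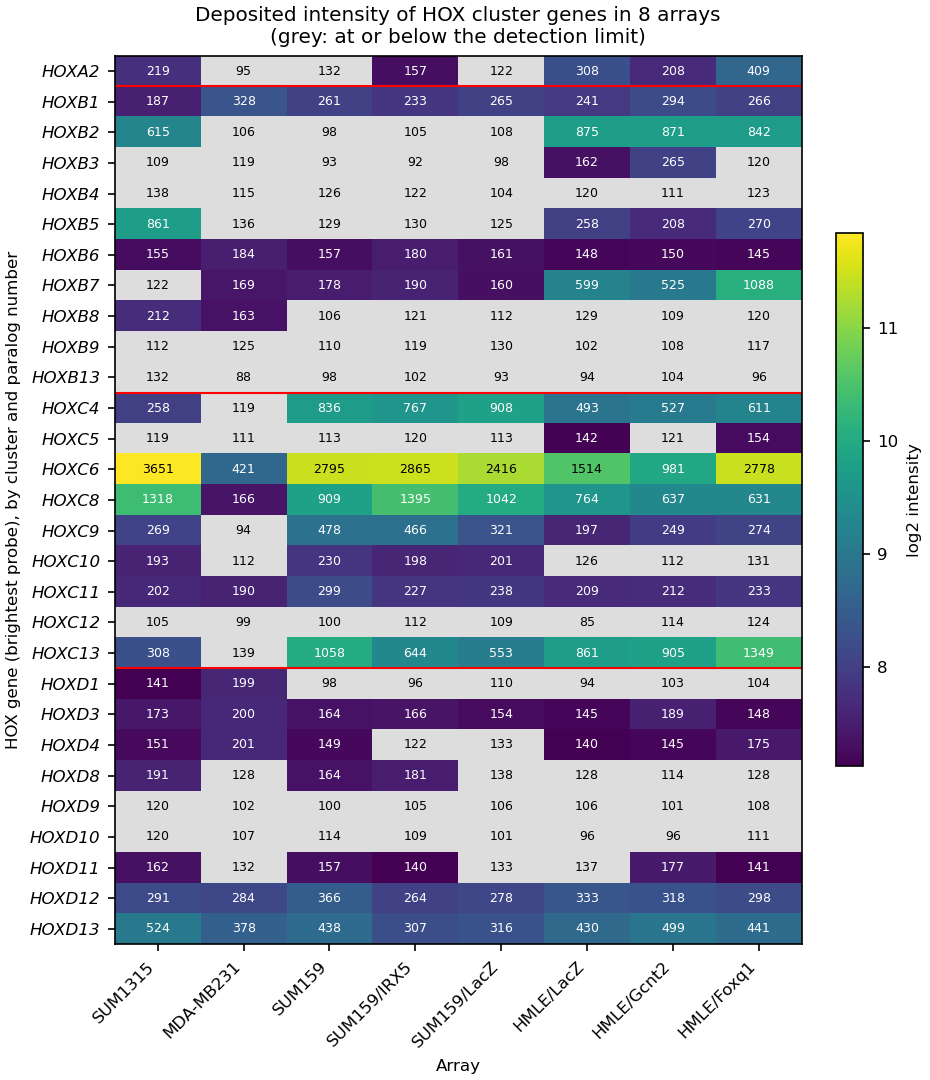
Deposited intensity (number in each cell, colour on a log2 scale) of the brightest probe of each of the 29 HOX genes (rows, by cluster and paralog number) in the 8 arrays (columns), with grey cells at or below the detection limit of 139.5. Read along a row: the MDA-MB231 column is grey or dark through HOXC4 to HOXC13, and HOXB2, HOXB5 and HOXB7 are bright only in some lines.

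Within the HOXB cluster the lines differed most in HOXB2, HOXB5 and HOXB7. HOXB2, a gene of hindbrain patterning, read 875, 871 and 842 in HMLE/LacZ, HMLE/Gcnt2 and HMLE/Foxq1, and 615 in SUM1315. It read 106 in MDA-MB231 and 97.5, 105 and 108 in SUM159, SUM159/IRX5 and SUM159/LacZ. The HMLE arrays and SUM1315 were thus high and the other 4 arrays all below the limit, a grouping read from these values. HOXB5, which in the mouse helps to place the shoulder girdle, read 861 in SUM1315, 258, 208 and 270 in the HMLE arrays in the same order, 136 in MDA-MB231, and 129, 130 and 125 in the SUM159 arrays. SUM1315 was the highest and only the HMLE arrays joined it above the limit. HOXB7, which is often overexpressed in breast cancer, had another order: it read 599, 525 and 1088 in the HMLE arrays, 178, 190 and 160 in the SUM159 arrays, 169 in MDA-MB231 and 122 in SUM1315. SUM1315, the highest array for HOXB5, was the lowest for HOXB7 and lay below the limit.

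Of the other HOXB genes, HOXB3 read 265 in HMLE/Gcnt2 and 162 in HMLE/LacZ, and between 91.6 and 120 in the other 6 arrays, the array labelled Foxq1 included. HOXB8 lay above the limit only in SUM1315 (212) and MDA-MB231 (163). HOXB1, the hindbrain gene at the head end of the cluster, was above the limit everywhere, from 187 in SUM1315 to 328 in MDA-MB231, and HOXB6 ran from 145 in HMLE/Foxq1 to 184 in MDA-MB231. HOXB4, HOXB9 and HOXB13, the last a gene of the prostate and hindgut, reached at most 138, 130 and 132. Within HMLE the genes above the limit in all 3 arrays were thus HOXB1, HOXB2, HOXB5, HOXB6 and HOXB7, with HOXB4 below it between them.

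HOXA2, which specifies the second pharyngeal arch, was the one HOXA gene read. It read 308, 208 and 409 in HMLE/LacZ, HMLE/Gcnt2 and HMLE/Foxq1, 219 in SUM1315 and 94.9 in MDA-MB231. The SUM159 arrays read 132 without transgene, 157 with IRX5 and 122 with LacZ. The HMLE arrays and SUM1315 lay above all others, the same arrays that were high for its paralog HOXB2.

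The HOXC cluster was active in every line but low in MDA-MB231. HOXC6 read 3651 in SUM1315, 2795, 2865 and 2416 in SUM159, SUM159/IRX5 and SUM159/LacZ, 1514, 981 and 2778 in HMLE/LacZ, HMLE/Gcnt2 and HMLE/Foxq1, and 421 in MDA-MB231. HOXC8, a gene of trunk patterning, read 1318 in SUM1315, 909, 1395 and 1042 in the SUM159 arrays, 764, 637 and 631 in the HMLE arrays and 166 in MDA-MB231. In both genes MDA-MB231 was below the lowest of the other 7 arrays. HOXC4 read 836, 767 and 908 in the SUM159 arrays, 493, 527 and 611 in the HMLE arrays, 258 in SUM1315 and 119 in MDA-MB231. HOXC13, known for its role in hair and nail keratin genes, read 1058, 644 and 553 in the SUM159 arrays, 861, 905 and 1349 in the HMLE arrays, 308 in SUM1315 and 139 in MDA-MB231. SUM1315 was therefore next above MDA-MB231 for HOXC4 and HOXC13, although it was the highest array for HOXC6.

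HOXC9 read 478, 466 and 321 in the SUM159 arrays, 269 in SUM1315, 197, 249 and 274 in the HMLE arrays and 93.7 in MDA-MB231. HOXC10, which helps to specify hindlimb motor neurons in the mouse, read 230, 198 and 201 in the SUM159 arrays and 193 in SUM1315, while the HMLE arrays (126, 112 and 131) and MDA-MB231 (112) lay below the limit. Of the cancer lines only MDA-MB231 was thus, like HMLE, below the limit for HOXC10, a grouping read from these values. HOXC11 varied little, from 190 in MDA-MB231 to 299 in SUM159. HOXC5 was above the limit only in HMLE/LacZ (142) and HMLE/Foxq1 (154), and HOXC12 nowhere, with a highest value of 124. Second probes of HOXC4 and HOXC6 were dim: the one annotated to NM_014620 of HOXC4 reached 120, and those annotated to NM_004503 and NM_153693 of HOXC6 reached 146 and 191. The last of these was, like the brightest HOXC6 probe, highest in SUM1315 and lowest in MDA-MB231 (128). Its deposited values spanned only 1.49-fold, where those of the brightest probe spanned 8.67-fold. The other dim HOXC6 probe read 131 in both SUM1315 and MDA-MB231 and was lowest in HMLE/Foxq1 (110).

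**Figure D2:**
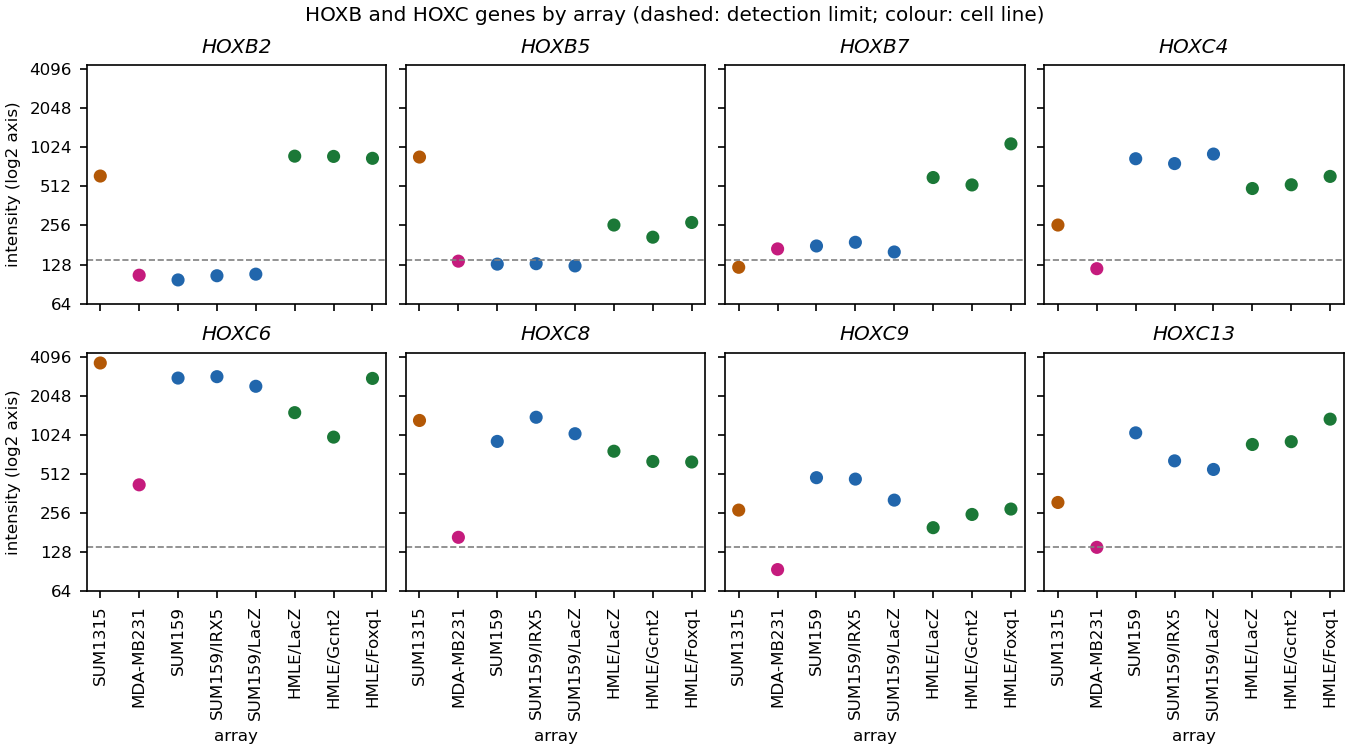
Deposited intensity (log2 axis) of 3 HOXB and 5 HOXC genes in each of the 8 arrays, 1 point per array, coloured by cell line, with the detection limit dashed. HOXB2 is high in SUM1315 and the 3 HMLE arrays, HOXB7 in the HMLE arrays only, and the MDA-MB231 point is the lowest in all 5 HOXC panels.

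The HOXD cluster differed little between the lines. HOXD12 and HOXD13, the limb and digit genes at the tail end of the cluster, were above the limit in all arrays, HOXD12 from 264 in SUM159/IRX5 to 366 in SUM159 and HOXD13 from 307 in SUM159/IRX5 to 524 in SUM1315. For HOXD12 the SUM159 arrays alone spanned the whole range. HOXD1 was above the limit in MDA-MB231 (199) and SUM1315 (141) only, and between 93.7 and 110 elsewhere. MDA-MB231 was also the highest array for HOXD3 (200, with the others from 145 to 189) and HOXD4 (201, with the others from 122 to 175). HOXD8 was above the limit in SUM1315 (191), SUM159/IRX5 (181) and SUM159 (164), HOXD11 ran from 132 to 177, and HOXD9 and HOXD10 stayed at or below 120.

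Paralogs were set side by side by the arrays in which they lay above the limit. Their probes may bind with unlike strength, so these counts do not rank the genes. In position 2, HOXA2 and HOXB2 were both above it in SUM1315 and the HMLE arrays, and HOXA2 was also above it in SUM159/IRX5 (157), where HOXB2 was not. In position 13, HOXD13 was above the limit in 8 arrays and HOXC13 in 7, while HOXB13 was above it in 0. In position 9, HOXC9 was above the limit in 7 arrays and HOXB9 and HOXD9 in none. In position 8, HOXC8 was above the limit in 8 arrays, HOXD8 in 3 and HOXB8 in 2, and the only array in which all 3 were above it was SUM1315.

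The 3 HMLE arrays were compared with the 3 SUM159 arrays, the only lines with more than 1 array. HOXB2, HOXB5, HOXB7 and HOXA2 were higher in HMLE and HOXC10 was lower, and no HOXD gene passed the test, 1 of the 9 (HOXD8) having an unadjusted p under 0.05 by limma. HOXB2 was at least 7.65-fold higher (log2 difference 3.52 ± 0.17, standard error, adjusted p = 2.85e-05, limma), HOXB7 4.61-fold (2.21 ± 0.30, adjusted p = 0.00341, limma), HOXB5 at least 1.96-fold (1.13 ± 0.16, adjusted p = 0.00475, limma) and HOXA2 had a log2 difference of 1.33 ± 0.28 (adjusted p = 0.0236, limma), with 1 of the 3 SUM159 arrays above the limit. HOXC10 was at least 1.64-fold lower in HMLE (-0.96 ± 0.15, adjusted p = 0.00686, limma). Folds are of background-corrected values, which run larger than ratios of the deposited intensities, and "at least" sets a group below the detection limit at that limit on the same scale. On the deposited scale the mean of the brighter line was 6.18 times the limit for HOXB2, 1.76 times for HOXB5 and 1.51 times for HOXC10. In all 5 genes the arrays of the 2 lines did not overlap, as in 29.1% of all probes. The 5 were called on these same arrays, so the lack of overlap adds no further support. Mean intensities of HOXB2 were 863 ± 18.2 (SD, n = 3) in HMLE and 104 ± 5.4 (SD, n = 3) in SUM159.

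Other HOXC genes had lower means in HMLE but missed the threshold: HOXC9 by -0.89 ± 0.25 (standard error, adjusted p = 0.0642, limma), HOXC4 by -0.66 ± 0.21 (adjusted p = 0.101, limma), HOXC8 by -0.73 ± 0.24 (adjusted p = 0.112, limma) and HOXC6 by -0.76 ± 0.36 (adjusted p = 0.257, limma). HOXC13 lay the other way, at 0.51 ± 0.32 (adjusted p = 0.394, limma). HOXB3 had a fitted difference of 1.14 ± 0.30 (adjusted p = 0.0535, limma), but all 3 SUM159 arrays and 1 HMLE array were below the limit, and against the limit the fold was at least 1.28. The arrays did not overlap for HOXB3, HOXC4, HOXC8 and HOXC9 and did for HOXC6 and HOXC13.

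In all, 5 of the 32 HOX probes (15.6%) were called at an adjusted p under 0.05, against 8.8% of all 24526 probes. 4 were higher in HMLE, against 4.75% of all probes, and 1 was lower, against 4.05%. An unadjusted p under 0.05 was reached by 12 HOX probes (37.5%, against 23.4% of all probes, limma). The arrays of the lines did not overlap for 13 of the 32 probes, against 29.1% of all probes. The median difference over the HOX probes was 0.01, beside -0.02 over all probes, and the median size of a difference was 0.24, beside 0.19. These p-values set the difference of the 2 lines against the spread among the 3 cultures within each line. Those cultures differ in transgene and are not replicates of 1 condition, so the p-values speak of these cultures only. An exact permutation test of 3 against 3 arrays could not go below 0.10. The keratin genes named above differ between these lines too, and their part in the HOX differences was not tested. Without the array labelled Foxq1, 9 HOX probes were called (28.1%, against 14.9% of all probes), HOXB3, HOXC4, HOXC6 and HOXC9 joining the 5, and without SUM159, SUM159/IRX5, SUM159/LacZ or HMLE/LacZ the call of HOXA2 was lost (adjusted p from 0.0563 to 0.11, limma).

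**Figure D3:**
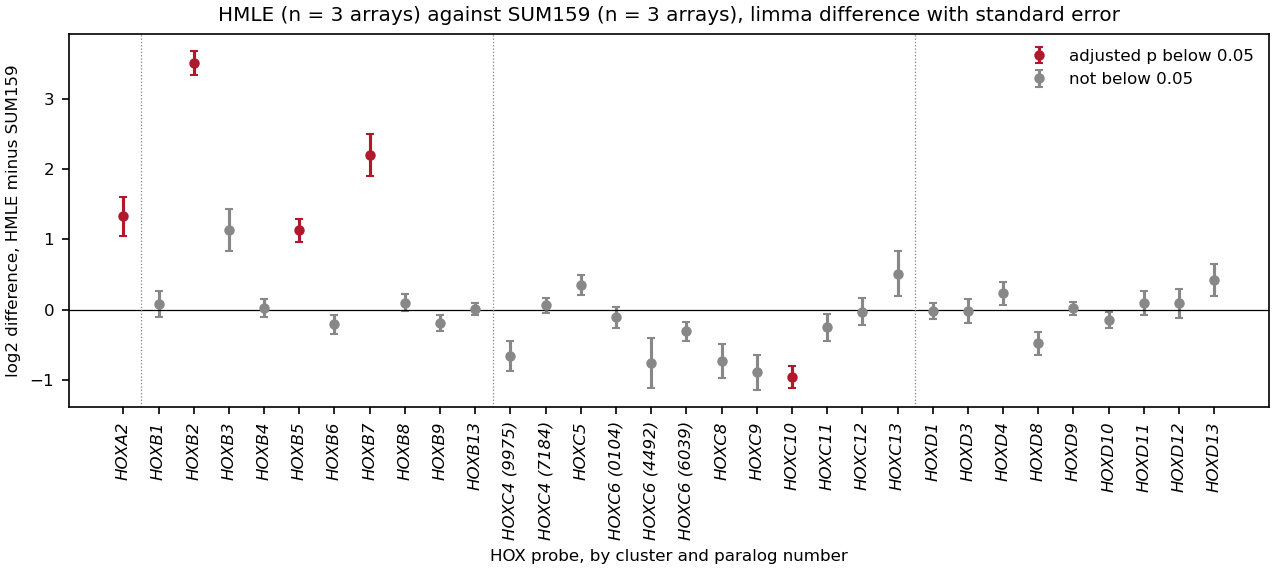
Log2 difference of each of the 32 HOX probes, HMLE (n = 3) minus SUM159 (n = 3), with its limma standard error as a bar, ordered by cluster and paralog number, and with the end of the probe identifier where a gene has several. Red points passed the adjusted p threshold of 0.05: HOXA2, HOXB2, HOXB5 and HOXB7 lie above 0 and HOXC10 below it, and the HOXD probes stay within 0.5 of 0.

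The comparison of the 3 cancer lines without transgene rests on 1 array each, so folds are given without a test and a gene was counted from 2-fold. MDA-MB231 and SUM1315 differed in 7 of 21 HOX genes, all higher in SUM1315. The 7 were HOXC8 (9.52-fold), HOXC6 (9.28-fold), HOXB5 (at least 7.65-fold), HOXB2 (at least 5.37-fold), HOXC13 (at least 2.55-fold), HOXC9 (at least 2.19-fold) and HOXC4 (at least 2.09-fold). These bounds hold on the background-corrected scale, and on the deposited scale SUM1315 was 6.17 times the limit for HOXB5, 4.41 for HOXB2, 2.21 for HOXC13, 1.93 for HOXC9 and 1.85 for HOXC4. These are 33.3% of the HOX genes compared, where 21.5% of all genes differed as much, 10.7% of them higher in SUM1315. With no background correction HOXC9 and HOXC4 therefore fell short of 2-fold.

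MDA-MB231 against SUM159 gave 5 of 18 HOX genes, all lower in MDA-MB231, where 14.2% of all genes differed in either direction 7.28% being higher and 6.92% lower. They were, with folds and bounds on the background-corrected scale, HOXC13 (at least 9.45-fold), HOXC4 (at least 7.41-fold), HOXC6 (7.09-fold), HOXC8 (6.50-fold) and HOXC9 (at least 4.12-fold). On the deposited scale SUM159 was 7.58 times the limit for HOXC13, 5.99 for HOXC4 and 3.43 for HOXC9. SUM1315 against SUM159 gave 4 of 21 HOX genes, where 18.5% of all genes differed. HOXB5 and HOXB2 were higher in SUM1315. On the background-corrected scale they were at least 7.64-fold and at least 5.37-fold higher (6.17 and 4.41 times the limit on the deposited scale). HOXC13 and HOXC4 were lower, 3.70-fold and 3.55-fold on the corrected scale. Each of these 3 lines stands in 2 of the comparisons, so their values are not independent of each other.

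MDA-MB231 and SUM1315 were also set against every other array, a comparison added after the values were seen. MDA-MB231 was the lowest of the 8 arrays in 10 of the 23 HOX genes above the limit in any array, against 14.2% of all such genes. Among the 10 were all 8 HOXC genes of the 23. For HOXA2, HOXC5, HOXC10 and HOXD11 the next array was below the limit too, so their order has no meaning. In 4 genes, HOXC4, HOXC6, HOXC8 and HOXC13, MDA-MB231 lay at least 2-fold below each of the other 7 arrays, against 0.567% of all genes. On the background-corrected scale the distance to the nearest array was 4.44-fold for HOXC8, at least 2.55-fold for HOXC13, 2.44-fold for HOXC6 and at least 2.09-fold for HOXC4. The nearest array was SUM1315 for HOXC13 and HOXC4, where the deposited values give 2.21 and 1.85 times the limit. MDA-MB231 was the highest array in 5 genes, HOXB1, HOXB6, HOXD1, HOXD3 and HOXD4, against 16.7% of all genes. In none of them was it 2-fold above each other array (1.15% of all genes). SUM1315 was the highest array in 5 genes, HOXB5, HOXB8, HOXC6, HOXD8 and HOXD13 (20.2% of all genes), and the lowest in HOXB1 and HOXB7 (18.5%). It lay 2-fold above each other array in HOXB5 alone (3.48-fold, against 2.73% of all genes) and 2-fold below each in no HOX gene (1.5% of all genes).

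**Figure D4:**
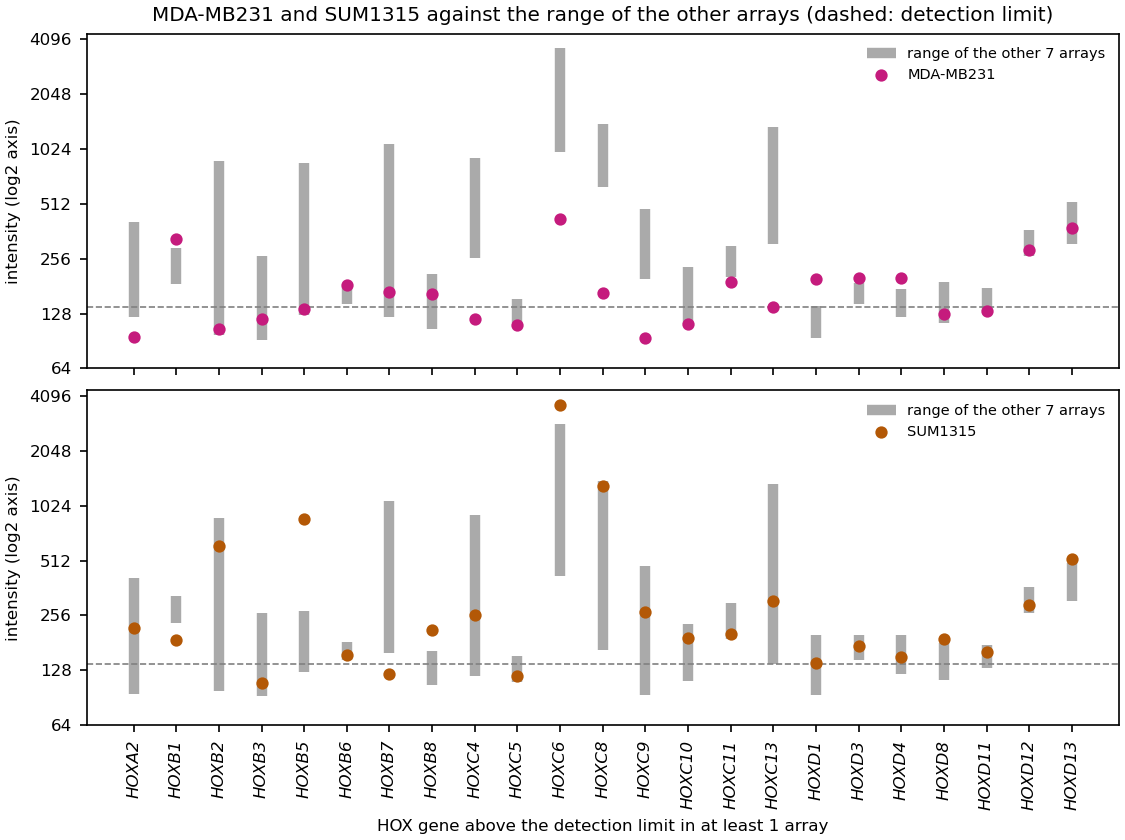
Intensity (log2 axis) of MDA-MB231 (upper panel) and SUM1315 (lower panel) as points, and the range of the other 7 arrays as grey bars, for the 23 HOX genes above the detection limit (dashed) in at least 1 array. MDA-MB231 lies clear below the bars of HOXC4, HOXC6, HOXC8, HOXC9 and HOXC13, and SUM1315 clear above the bar of HOXB5.

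No HOX gene was 2-fold apart between an array labelled with an introduced gene and its LacZ array, or between SUM159/LacZ and SUM159. Where 1.04% to 3.51% of all genes differ as much, a count of 0 among 16 or 19 genes is not particular to HOX genes. The FOXQ1 and IRX5 probes were not higher in the arrays labelled with these genes. The array labelled Foxq1 had 0 of 19 HOX genes 2-fold from HMLE/LacZ, where 11.6% of all genes were. Its largest HOX differences were HOXB7 (1088 against 599, 1.86-fold) and HOXC6 (2778 against 1514, 1.85-fold), both higher. HMLE/Gcnt2 also had 0 of 19 2-fold from the same LacZ array (1.04% of all genes), with HOXB3 at 265 against 162 (1.79-fold higher) and HOXA2 at 208 against 308 (1.57-fold lower). HOXC6 was 1.56-fold lower there, so that the 3 HMLE arrays ranged from 981 to 2778 for this gene. The array labelled IRX5 had 0 of 16 HOX genes 2-fold from SUM159/LacZ (3.08% of all genes), the largest difference being HOXC9 at 466 against 321 (1.5-fold). SUM159/LacZ against SUM159, which differ by the vector, had 0 of 16 (3.51% of all genes), and HOXC13 at 553 against 1058 was 1.97-fold lower. No test was possible with 1 array per condition.

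HOX profiles were alike within a line and apart between lines. Over the 23 HOX genes the mean absolute log2 difference, with dim values at the limit, was 0.15 to 0.36 for the 6 pairs of arrays of 1 line and 0.58 to 0.67 for the 9 pairs of SUM159 with HMLE. It was 0.60 to 0.69 for SUM1315 with SUM159 or HMLE arrays and 0.71 to 1.05 for the 7 pairs with MDA-MB231. Over all 12866 genes above the limit in any array the same measure was 0.19 to 0.46 within a line, 0.47 to 0.62 for SUM159 with HMLE, 0.56 to 0.67 for SUM1315 and 0.48 to 0.60 for MDA-MB231. MDA-MB231 was thus farther from the other arrays in its HOX genes than in all genes, while for all genes it was no farther than SUM1315. Pairs share arrays, and these values are descriptions.

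**Figure D5:**
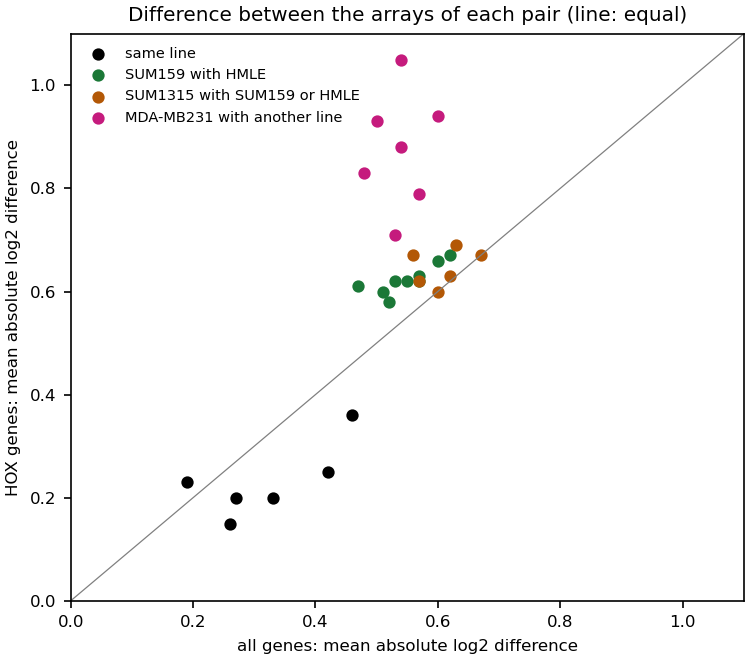
Mean absolute log2 difference between the arrays of each of the 28 pairs, over the 23 HOX genes (vertical axis) and over all 12866 genes above the detection limit (horizontal axis), with the line of equality. Pairs of 1 line lie at 0.36 or less for HOX genes, and the pairs with MDA-MB231 lie at 0.71 or more, above the line.

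Genes that work with or on HOX genes were read from gene lists by their brightest probe, where 9.74% of all genes were called between HMLE and SUM159. Of the TALE cofactors 2 of 9 were called, both lower in HMLE, and the median difference was -0.16, beside -0.02 over all probes. PKNOX2 read 1459, 1088 and 800 in the SUM159 arrays and between 113 and 157 in the other 5 arrays (log2 difference -3.36 ± 0.26, adjusted p = 0.000263, limma), with 2 of the 3 HMLE arrays just above the limit. TGIF2 was 1.77-fold lower (adjusted p = 0.0479, limma), a call kept only without the array labelled Foxq1 when 1 array at a time was left out. SUM1315 lay at least 2-fold above each other array for 2 of the 9, against 2.73% of all genes. They were PBX2, a HOX partner (1183, others 294 to 526), and TGIF1 (5736, others 1188 to 2436). MDA-MB231 lay 2-fold from each other array in no TALE gene, where 1.15% of all genes lay above and 0.567% below.

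Of the Polycomb genes, whose complexes keep HOX genes silent, 1 of 24 was called, BMI1, 2.00-fold lower in HMLE (adjusted p = 0.0266, limma), and the list's median difference was -0.21. The call was lost in 4 of the 6 fits that leave out 1 array (without SUM159/IRX5, SUM159/LacZ, HMLE/LacZ or HMLE/Gcnt2, highest adjusted p = 0.127, limma). Of the trithorax genes and H3K27 demethylases, which oppose them, 1 of 14 was called, the demethylase KDM6A, 2.29-fold higher in HMLE (adjusted p = 0.0202, limma), at a median of -0.06, and its call was lost without SUM159, SUM159/IRX5 or HMLE/Gcnt2 (highest adjusted p = 0.0777, limma). In neither list did MDA-MB231 or SUM1315 lie 2-fold from each other array. Few of all genes did (MDA-MB231 1.15% above and 0.567% below, SUM1315 2.73% above and 1.5% below). Retinoic acid induces many HOX genes, and of its pathway 4 of 16 were called, at a median of 0.09. ALDH1A3, which makes retinoic acid, read 9989, 15010 and 1521 in HMLE/LacZ, HMLE/Gcnt2 and the array labelled Foxq1 and 141 to 295 in the SUM159 arrays. It was 40.0-fold higher in HMLE (5.32 ± 0.79, adjusted p = 0.00533, limma) and 80.6-fold without the array labelled Foxq1, which stood well below the other HMLE arrays. The binding protein CRABP2 was 4.80-fold higher (adjusted p = 0.00239, limma) and the retinol dehydrogenase RDH10 3.0-fold higher (adjusted p = 0.0393, limma). ALDH1A1 was at least 2.31-fold lower (adjusted p = 0.0395, limma). It read 331 in SUM159 and 545 in SUM159/LacZ but 133, below the limit, in SUM159/IRX5, and all HMLE arrays were below the limit. When 1 array at a time was left out, ALDH1A3 and CRABP2 were called in 6 of 6 fits, RDH10 only without the array labelled Foxq1, and ALDH1A1 only without that array or SUM159/IRX5. DHRS3, a retinaldehyde reductase, read 106 in MDA-MB231 and 254 to 986 elsewhere, and the receptor gene RARA read 348 in SUM1315 and 866 to 2139 elsewhere.

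Genes next to the clusters were read in the same way. Of the flanking genes 1 of 12 was called, HIBADH beside the HOXA cluster, 2.39-fold lower in HMLE (adjusted p = 0.0376, limma), the direction opposite to HOXA2, and the median was -0.15. That call too was kept only without the array labelled Foxq1. Beside the HOXC cluster, CALCOCO1 read 149 in MDA-MB231 and 154 to 378 elsewhere, SMUG1 1031 against 1222 to 2359, and CBX5 1451 against 1134 to 1551. MDA-MB231 was thus the lowest array for SMUG1 and for CALCOCO1, which lay near the limit there. It was lowest for 3 of the 10 flanking genes above the limit, against 14.2% of all genes. It lay 2-fold below each other array for none of the 10, but only 0.567% of all genes did, so most sets of this size would give none. Whether the HOXC genes differ from their neighbours in this was not tested. Of the ParaHox genes 6 had a probe, 2 lay above the limit in any array and none was called by limma. Only GSX2 had an unadjusted p under 0.05 by limma, as 23.4% of all probes did. It read 85.5 to 105, below the limit in every array.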

How the data were processed

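Total RNA of 8 cultures was labelled with biotin and hybridized to Illumina bead arrays. The deposited table holds the authors' normalized probe intensity (linear, lowest 73.3, highest 56056.2). After sorting, no value had a coefficient of variation across arrays above 1.19%, as quantile normalization leaves them. The submitters' processing notes list GenomeStudio, lumi 1.14 and R 2.11.1 but no role for them, and how background was corrected is not stated there. A further table of unnormalized values was not used, because none of its 16 columns of signals and detection p-values carries a name that ties it to a sample.

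Probes were named by the platform annotation and their symbols updated through the Entrez number with RefSeq. Background was then corrected by normexp with an offset of 50 in limma 3.58.1 under R 4.3.3, log2 was taken, and no further normalization was applied. The detection limit of 139.5 is the mode of 108.6 plus the spread below it, mirrored above it, at a tail of 0.01 (log2 scale). A gene is its probe with the highest mean. HMLE and SUM159 were compared with limma (eBayes with trend) on all 24526 probes with Benjamini-Hochberg adjustment, and the calculation was tested on simulated data. Single arrays were compared by fold, counted from 2-fold where at least 1 array lay above the limit, with no test, and the number of arrays limits the precision. Tables and figures were made with Python 3.11.15, pandas 2.3.3 and matplotlib 3.10.9.

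The members and gene lists were chosen with earlier results of these data known. HOX genes above the limit in any array are described in every array, and of the other lists up to 4 called genes per direction. PBX2, TGIF1, DHRS3, RARA, CALCOCO1, SMUG1 and CBX5 were chosen after their values were seen. Alternatives were no background correction, further quantile normalization, eBayes without trend, dim probes left out, other limits, the mean of a gene's probes and leaving out each array of the tested lines.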

Additional observations from a re-analysis of the deposited data

How the results depend on the processing

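No paired analysis was possible because each condition has 1 array and the labels give no replicate numbers. Between HMLE and SUM159, leaving out 1 array at a time gave 4 to 9 HOX probes called and 969 to 3647 of all probes, the highest of both without the array labelled Foxq1. HOXB2, HOXB5, HOXB7 and HOXC10 were called in every one of these 6 fits and with no background correction, further quantile normalization, eBayes without trend and dim probes left out. HOXC4 was also called with eBayes without trend (adjusted p = 0.0329, limma), and HOXB3 also without HMLE/Gcnt2 (adjusted p = 0.0483, limma). At 1.5 times the detection limit fewer HOX genes lay above it: 11 in SUM1315, 4 in MDA-MB231, 10 in SUM159, 9 in SUM159/IRX5, 9 in SUM159/LacZ, 11 in HMLE/LacZ, 12 in HMLE/Gcnt2 and 13 in HMLE/Foxq1. SUM1315, first at the main limit, was then below HMLE/Gcnt2 and HMLE/Foxq1. The counts are smaller because a higher limit can only remove genes. With the mean of a gene's probes, SUM1315 differed 2-fold from MDA-MB231 in 6 HOX genes instead of 7. Against SUM159 it differed in 3 instead of 4, and MDA-MB231 against SUM159 stayed at 5. With no background correction the 2-fold distance of MDA-MB231 from each other array was kept by HOXC6, HOXC8 and HOXC13 and not by HOXC4. This comparison, its alternatives and leaving out arrays for the other gene lists were chosen after seeing the data. The counts of 0 for the transfected genes were 0 in each of the 4 alternatives run for them. Most HOXD genes lay near the limit, where signal over background allows only bounds on a fold.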
